A study of Homo sapiens with 12 samples.

Results

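The subunits of oligosaccharyltransferase (OST), the enzyme of the endoplasmic reticulum (ER) that attaches N-glycans to proteins, were followed in cells making wild-type or deregulated Ero1α. The subunit genes were taken as a list of 10: STT3A, STT3B, RPN1, RPN2, DDOST, DAD1, OST4, OSTC, MAGT1 and TUSC3. A member was measured where a probe set of the array had it as its single gene symbol, and of several the one with the highest mean level stood for the gene. This gave 9 members, on 10 probe sets, among the 18404 named genes of the arrays. OST4 was not matched to such a probe set and has no value here.

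Each array held total RNA from one culture of HEK 293 Flp-In T-REx cells, a human embryonic kidney line built so that a gene placed at a fixed genomic site is switched on by doxycycline. One stable line carried wild-type Ero1α (the WT line) and the other carried Ero1α-C104A/C131A, in which regulatory cysteines of the oxidase are replaced by alanine, a change known to raise its activity. Cultures of each line were harvested uninduced or after 24 h of doxycycline, and each of these 4 groups had 3 biological replicates, lettered A to C, making 12 arrays. Both lines grew under hygromycin B and blasticidin in every group. The labels do not say whether a line is 1 clone, nor what separates one replicate from another, so p-values measure only the spread between these cultures. Parental cells given doxycycline were not analysed here, and what the drug does by itself cannot be told apart from what the oxidase does.

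OST works at the exit of the protein-conducting channel of the ER and moves a preassembled glycan from a dolichol lipid to asparagine residues of entering proteins. Mammalian cells build it around 1 of 2 catalytic subunits. The STT3A complex carries OSTC and glycosylates chains while they pass the channel, whereas the STT3B complex carries MAGT1 or TUSC3 and also serves sites that were skipped. MAGT1 and TUSC3 are thioredoxin-like oxidoreductases that can form transient disulfides with the protein to be glycosylated. RPN1, RPN2, DDOST, DAD1 and OST4 are shared by both forms.

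Values were log2 levels from robust multi-array averaging (RMA), which equalises the arrays' distributions and so hides any shift common to most genes. The medians of the arrays ran from 6.36 to 6.43. Arrays of one group correlated with r of 0.992 to 0.996 across probe sets. The number of arrays limits the precision. ERO1A, which checks the labels, rose 5.38-fold on induction in the C104A/C131A line (limma, adjusted p = 3.08e-09) and 4.37-fold in the WT line (adjusted p = 1.42e-08). The larger fold change does not mean a higher induced level. Against the WT line, ERO1A in the C104A/C131A line was at 0.740-fold uninduced (limma, adjusted p = 0.000454). It was at 0.912-fold with both induced, which did not pass (adjusted p = 0.178). The ERO1A probe set does not tell transgene from endogenous RNA. Of 7 genes that HEK 293 lines are known to express, 6 lay above the median probe set (6.39), and NEFM, at 5.25, did not. Of 21 measured markers of fibroblasts, leukocytes, endothelium and hepatocytes, COL1A1 (7.28) and CD68 (8.22) did. By limma 0 of these 21 passed on induction in either line, and at an unadjusted p of 0.05, 0 passed in the C104A/C131A line and 2 in the WT line. The mean of every measured OST subunit was above that median.

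The promoters of the members whose RNA rose in the C104A/C131A line are shown first, because the classical ER stress genes that rose with them carry known response elements. Sequences are from RefSeq (GRCh38.p14), which had a window for 7 of the 10 members, OST4 among them. STT3B, RPN1 and TUSC3 had none and were not examined for elements. Each window is the 250 bases before the transcription start, 5′ to 3′ on the gene's strand. Capitals mark the CCAAT box, the CCACG half-site and the ACGTG core on either strand. The last line is a 60-base stretch before HSPA5, the gene of the ER chaperone BiP, in which capitals mark the ER stress response element (ERSE, in which CCAAT and CCACG stand 9 bases apart).
MAGT1 (chrX:77895569-77895818, minus strand): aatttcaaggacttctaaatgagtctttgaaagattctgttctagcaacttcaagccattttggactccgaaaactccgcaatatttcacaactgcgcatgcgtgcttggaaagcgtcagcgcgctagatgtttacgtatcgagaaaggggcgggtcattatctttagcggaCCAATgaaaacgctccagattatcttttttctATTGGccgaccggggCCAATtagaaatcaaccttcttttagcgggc
OSTC (chr4:108650349-108650598, plus strand): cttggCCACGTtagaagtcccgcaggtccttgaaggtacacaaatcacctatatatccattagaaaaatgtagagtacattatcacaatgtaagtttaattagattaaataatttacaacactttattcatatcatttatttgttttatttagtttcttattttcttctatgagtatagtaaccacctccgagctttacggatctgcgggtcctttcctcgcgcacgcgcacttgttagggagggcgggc
STT3A (chr11:125592602-125592851, plus strand): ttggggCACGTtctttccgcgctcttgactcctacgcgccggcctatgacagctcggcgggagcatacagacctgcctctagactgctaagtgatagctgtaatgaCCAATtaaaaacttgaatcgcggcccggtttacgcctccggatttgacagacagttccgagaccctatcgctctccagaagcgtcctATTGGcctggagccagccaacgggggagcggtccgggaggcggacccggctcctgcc
HSPA5 (chr9:125241364-125241423, minus strand): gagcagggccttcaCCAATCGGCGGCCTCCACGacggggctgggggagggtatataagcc

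The full ERSE was in 0 of the 7 members' windows, against 2 of 8 ER stress genes (HSPA5 and XBP1) and 0.074% of 35116 windows of all genes. The ERSE-II form, ATTGG and CCACG with 1 base between them, was likewise in 0 members, in 3 of the 8 stress genes and in 0.0513% of windows. The XBP1 element TGACGTGG was in 0 members, in HYOU1 among the stress genes and in 0.612% of windows. The CCAAT box is also part of the ERSE and, reversed, of the ERSE-II. It was in 4 of the 7 members, STT3A, DDOST, DAD1 and MAGT1, in 8 of the 8 stress genes and in 32.0% of all windows. A gene was counted if any of its windows matched, whereas the share is over single windows. The MAGT1 window held 3, at 78, 46 and 31 bases before the start, the second of them on the opposite strand. MAGT1 has 2 listed starts, and the window shown belongs to the upstream one. The half-site CCACG was in 3 of the 7 members, DDOST, OST4 and OSTC, in 7 of the 8 stress genes and in 33.5% of all windows. The core ACGTG was in 4 of the 7, STT3A, DDOST, DAD1 and OSTC, in 5 of the 8 stress genes and in 18.5% of windows. In OSTC the half-site and the core overlap, the half-site beginning 245 bases and the core, on the opposite strand, 244 bases before the start. These are letter matches only, and no binding was measured.

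On induction in the C104A/C131A line, MAGT1, OSTC and STT3A rose. These are the oxidoreductase of the STT3B complex, the adaptor of the STT3A complex and a catalytic subunit. MAGT1 rose 1.5-fold (95% interval 1.38 to 1.62), OSTC 1.36-fold (1.24 to 1.48) and STT3A 1.26-fold (1.16 to 1.36), while TUSC3, the paralog of MAGT1, was at 1.03-fold and did not pass. In all, 3 of 9 members rose and 0 fell, where 0.321% of all genes tested rose and 0.00543% fell (limma, adjusted p under 0.05 over all genes). The members had a median log2 change of 0.18, against -0.01 over all genes. Induced and uninduced arrays did not overlap, with the induced higher, for 7 of 9 members and 4.51% of all genes.

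MAGT1 stood at log2 levels of 9.73, 9.68 and 9.75 on the uninduced C104A/C131A arrays and at 10.25, 10.34 and 10.33 on the induced ones. It went from 9.66, 9.78 and 9.80 to 9.91, 9.94 and 9.91 in the WT line. All 6 induced arrays were above all 6 uninduced arrays, and the induced C104A/C131A arrays were above every other array. The log2 change was 0.58 ± 0.05 (SE) in the C104A/C131A line (95% interval 0.47 to 0.70, limma, adjusted p = 0.000254). That call held in all 21 alternative fits of this comparison. In the WT line the change was 0.17 (95% interval 0.06 to 0.29), which did not pass (adjusted p = 0.835) in the main or any of 22 alternative fits. A dimmer probe set of MAGT1, at group means of 3.60 to 3.89, had log2 changes of 0.13 in the C104A/C131A line and 0.21 in the WT line. With the mean of both probe sets the MAGT1 change in the C104A/C131A line was 0.36.

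TUSC3, which takes the place of MAGT1 in a share of STT3B complexes, did not follow it. Its levels were 10.36, 10.43 and 10.38 without and 10.40, 10.48 and 10.43 with induction in the C104A/C131A line. They were 10.37, 10.48 and 10.40 without and 10.30, 10.40 and 10.40 with induction in the WT line. The groups overlapped in both lines. The log2 change was 0.05 (95% interval -0.07 to 0.16) in the C104A/C131A line and -0.05 (95% interval -0.17 to 0.07) in the WT line, and neither passed (limma, adjusted p = 0.963 and 0.996).

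Within each array the difference of the log2 levels of MAGT1 and TUSC3 gives their unequal change, free of array scaling. Levels of different probe sets are not comparable, so only the shift of this difference is read. It was -0.63, -0.75 and -0.63 on uninduced and -0.15, -0.14 and -0.10 on induced arrays of the C104A/C131A line. The WT line had -0.71, -0.70 and -0.60 without and -0.38, -0.46 and -0.49 with induction. The uninduced groups overlapped, and the 2 induced groups lay apart from them and from each other. For the catalytic pair, STT3A minus STT3B, the mean difference was 1.16 ± 0.10 and 1.22 ± 0.05 (SD, n = 3) in the WT line and 1.01 ± 0.07 and 1.07 ± 0.02 in the C104A/C131A line, without and with induction. Those induced and uninduced groups overlapped in each line.

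**Figure D1:**
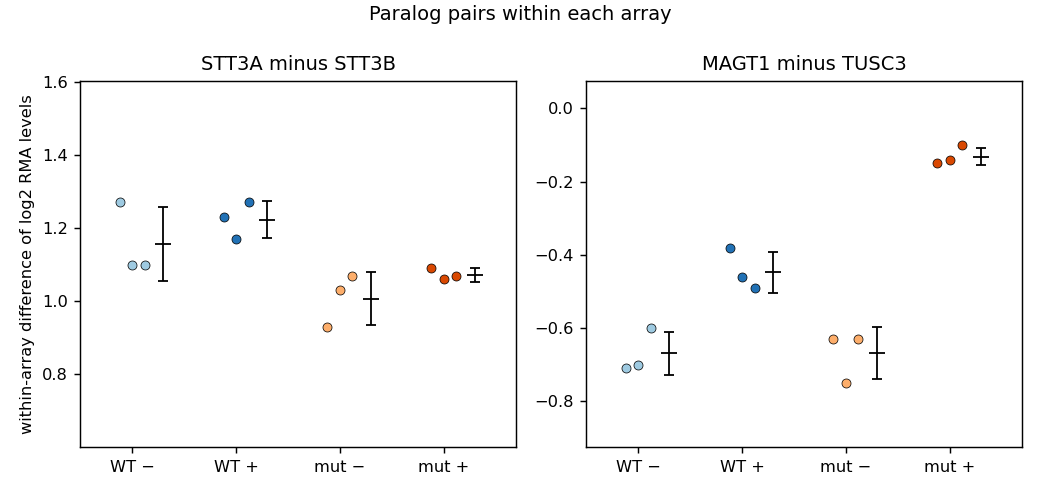
Within-array difference of log2 RMA levels (vertical axis) for STT3A minus STT3B and MAGT1 minus TUSC3, 1 point per array in 4 groups (− uninduced, + induced, mut for C104A/C131A), with bars for mean ± SD, n = 3. The MAGT1 minus TUSC3 points rise from about -0.67 in both uninduced groups to a mean of -0.45 in the induced WT group and -0.13 in the induced C104A/C131A group.

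The subunits proper to the STT3A complex followed. STT3A, the catalytic subunit that acts during translocation, was at 11.15, 11.22 and 11.32 on uninduced and 11.53, 11.60 and 11.55 on induced C104A/C131A arrays. WT arrays were at 11.31, 11.27 and 11.28, and at 11.48, 11.49 and 11.55 with induction. All 6 induced arrays again lay above all 6 uninduced ones. The log2 change was 0.33 ± 0.05 (SE) in the C104A/C131A line (limma, adjusted p = 0.0231) and 0.22 in the WT line (95% interval 0.10 to 0.34), which did not pass (adjusted p = 0.518). The call in the C104A/C131A line was lost with arrays centred on their medians, with the 6 arrays of that line alone, and without the 2 arrays of the most extreme scores on the first principal component (WT uninduced A with C104A/C131A induced B). It was also lost without WT uninduced B, WT induced B, C104A/C131A uninduced A or B, or any one induced C104A/C131A array. The adjusted p over all 21 alternative fits ran from 5.74e-05 to 0.254.

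OSTC, which joins the STT3A complex to the translocon, was at 10.52, 10.36 and 10.38 without and 10.81, 10.85 and 10.92 with induction in the C104A/C131A line. WT arrays stood at 10.63, 10.56 and 10.57 without and 10.84, 10.83 and 10.92 with induction. The induced groups of both lines overlapped each other and lay above all uninduced arrays. The log2 change was 0.44 ± 0.06 (SE) in the C104A/C131A line (limma, adjusted p = 0.00524) and 0.28 in the WT line (95% interval 0.15 to 0.41), which did not pass (adjusted p = 0.268). The former call was lost in the fit of the 6 arrays of that line alone (adjusted p = 0.106 there, 1.27e-05 to 0.106 over the 21 alternatives).

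**Figure D2:**
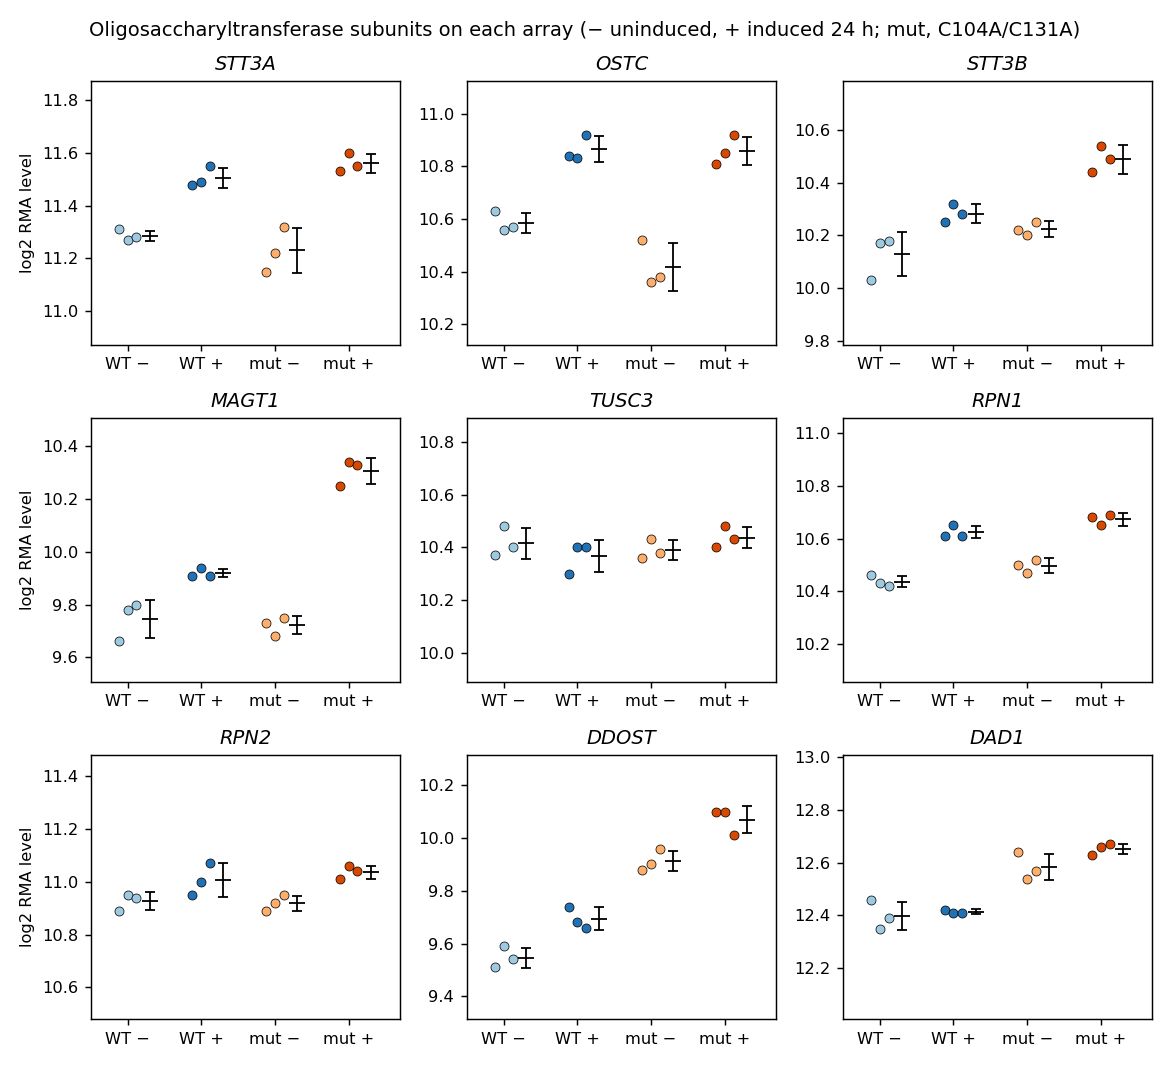
Log2 RMA level (vertical axis, a span of 1 log2 unit in each panel) of 9 OST subunits on each array, in 4 groups (− uninduced, + induced 24 h, mut for C104A/C131A), with bars for mean ± SD, n = 3. The 3 induced C104A/C131A arrays stand above all others for MAGT1 (10.25 to 10.34). Both induced groups lie above both uninduced groups for MAGT1, STT3A, OSTC and RPN1, and TUSC3 overlaps throughout.

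STT3B, the other catalytic subunit, which also glycosylates skipped sites, was at 10.22, 10.20 and 10.25 without and 10.44, 10.54 and 10.49 with induction in the C104A/C131A line. In WT cells it was at 10.03, 10.17 and 10.18, and at 10.25, 10.32 and 10.28 with induction. Induced and uninduced arrays did not overlap within either line. The log2 change was 0.26 (95% interval 0.14 to 0.39) in the C104A/C131A line and 0.15 (95% interval 0.03 to 0.27) in the WT line, and neither passed (limma, adjusted p = 0.109 and 0.996).

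Among the shared subunits the log2 changes lay between 0.02 and 0.19, and none passed in either line in the main fit. RPN1, or ribophorin I, which helps present some membrane proteins to the enzyme, was at 10.46, 10.43 and 10.42 without and 10.61, 10.65 and 10.61 with induction in the WT line. In the C104A/C131A line it was at 10.50, 10.47 and 10.52 without and 10.68, 10.65 and 10.69 with induction. Every induced array was above every uninduced one. The log2 change was 0.19 and 0.18 in these lines (limma, adjusted p = 0.467 and 0.314). In the C104A/C131A line RPN1 passed in 2 of 21 alternative fits, with a trend and robust prior and by the two-way analysis of variance (adjusted p 0.0108 to 0.814 over them). DDOST, a membrane subunit of the core enzyme, had log2 changes of 0.15 in the WT line and 0.16 in the C104A/C131A line, and its groups did not overlap in either. RPN2, or ribophorin II, with levels of 10.89 to 11.07 over all arrays, was at 0.08 and 0.12, and its groups overlapped in the WT line alone. DAD1, the small subunit named defender against cell death, was at 0.02 and 0.07 and overlapped in both.

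In the WT line 0 of 9 members passed by limma, where 0.114% of all genes rose. At an unadjusted p of 0.05, 6 of 9 members and 4.46% of all genes passed. The two-way analysis of variance, in which the same contrast was tested without sharing the spread between genes, called 1 member, RPN1. It follows the two-way layout of the series design. The induced arrays lay above the uninduced ones without overlap for 6 of 9 members and for 5.24% of all genes. The median log2 change was 0.15 over the members and 0.00 over all genes. A prior with trend and robust fitting, and array weights, each called 3 members in this line, OSTC, RPN1 and STT3A. The groups did not overlap in both lines at once for 6 members, STT3A, STT3B, RPN1, DDOST, OSTC and MAGT1, and for 0.875% of all genes.

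**Figure D3:**
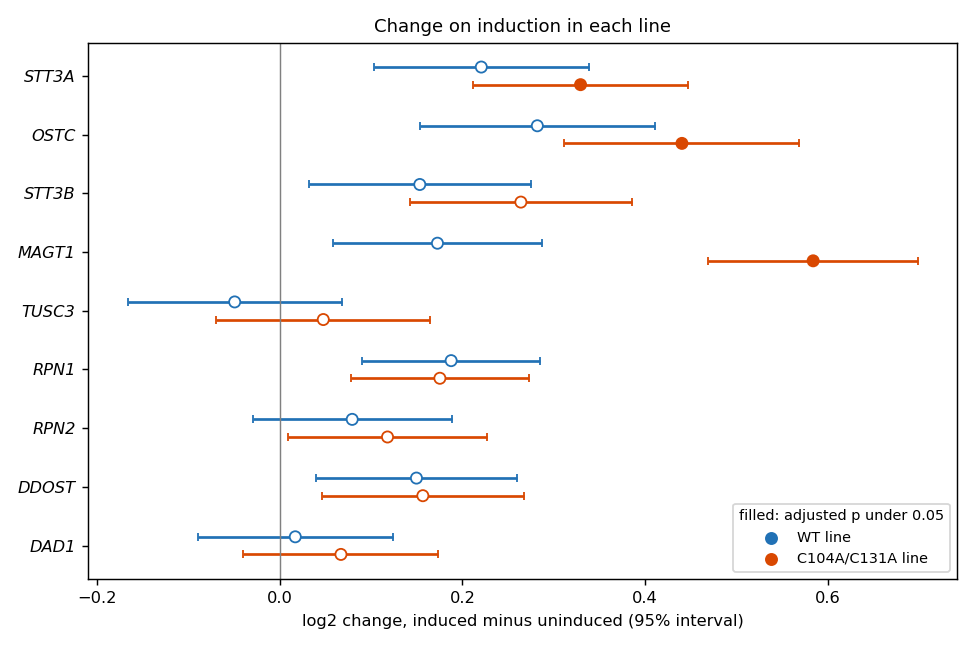
Log2 change on induction (horizontal axis, induced minus uninduced, point and 95% interval from limma) of 9 OST subunits in the WT and C104A/C131A lines, with filled points for an adjusted p under 0.05. The MAGT1 intervals of the lines lie apart (0.06 to 0.29 and 0.47 to 0.70), while those of the other 8 subunits overlap.

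When the responses of both lines were averaged, 5 of 9 members rose and 0 fell, where 0.473% of all genes rose. MAGT1 rose by 0.38 on the log2 scale (limma, adjusted p = 0.000321), OSTC by 0.36 (adjusted p = 0.00134) and STT3A by 0.28 (adjusted p = 0.00533). These calls held in all 20 alternative fits. STT3B rose by 0.21 (adjusted p = 0.0462) and RPN1 by 0.18 (adjusted p = 0.0251). Both of these calls were lost with centred arrays, without the 2 extreme arrays on the first component and with the replicate letter as a block (adjusted p = 0.0613 and 0.0736 with the replicate block, limma). The STT3B call was lost without any 1 of the 12 arrays, and the RPN1 call without any 1 of 10 of them, the exceptions being C104A/C131A induced B and WT uninduced A. DDOST was at a log2 change of 0.15 (adjusted p = 0.174), RPN2 at 0.10, DAD1 at 0.04 and TUSC3 at -0.00 (95% interval -0.08 to 0.08).

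Whether the C104A/C131A line gave the larger response was tested as the difference of the induction responses. By limma 0 of 9 members and 0% of all genes passed. At an unadjusted p of 0.05, 1 member, MAGT1, and 4.21% of all genes passed, and the two-way analysis of variance called 0 members. The MAGT1 response was larger in the C104A/C131A line by 0.41 ± 0.07 (SE; 95% interval 0.25 to 0.57) on the log2 scale (adjusted p = 0.293). It was called in 1 of 20 alternative fits, that with a trend and robust prior (adjusted p = 0.0104). With the mean of its probe sets the difference was 0.17. The intervals of the differences were -0.02 to 0.34 for OSTC, -0.06 to 0.28 for STT3A, -0.06 to 0.28 for STT3B and -0.07 to 0.26 for TUSC3. For RPN1 the interval was -0.15 to 0.13, for DDOST -0.15 to 0.16, for RPN2 -0.12 to 0.19 and for DAD1 -0.10 to 0.20.

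Between the lines without induction, DDOST and DAD1 were higher in the C104A/C131A line. DDOST was 1.29-fold higher, at 9.88, 9.90 and 9.96 against 9.51, 9.59 and 9.54 in the WT line (log2 difference 0.37 ± 0.05, SE, limma, adjusted p = 0.000257). DAD1 was 1.14-fold higher, at 12.64, 12.54 and 12.57 against 12.46, 12.35 and 12.39 (log2 difference 0.19, adjusted p = 0.0168). The lines did not overlap for either gene. In all, 2 of 9 members were higher and 0 lower, where 10.8% of all genes were higher and 10.5% lower. The C104A/C131A arrays lay above the WT arrays without overlap for 4 members, DDOST, DAD1, RPN1 and STT3B, and for 18.4% of all genes. For OSTC they lay below the WT arrays without overlap, a direction not counted over all genes. The DAD1 call was lost with the 6 uninduced arrays alone and without WT uninduced B, WT uninduced C or C104A/C131A uninduced A (adjusted p 0.000131 to 0.0769 over all 21 alternatives). OSTC was at a log2 difference of -0.17 (95% interval -0.29 to -0.04) and did not pass (limma, adjusted p = 0.0685). It passed as lower in 4 of 21 alternatives, without dim genes, with a trend and robust prior, with array weights and without C104A/C131A uninduced A (adjusted p 0.0117 to 0.214 over them). MAGT1 was at -0.02 and TUSC3 at -0.03. Among the 21 markers of other cell types, LUM (3.06-fold) and CD68 (1.69-fold) were higher and LYZ (0.712-fold) was lower in the same comparison, and LUM and LYZ lay below the median probe set. Of the 7 genes known from HEK 293 lines, 4 were higher, VIM 1.56-fold, KRT8 1.40-fold, LIN28B 1.30-fold and KRT18 1.17-fold. Of the 8 ER stress genes other than ERO1A, 2 were higher, HYOU1 (1.63-fold) and DDIT3 (1.45-fold), and 0 lower. The part of these markers and stress genes in the differences of DDOST and DAD1 was not tested.

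The neighbours of these genes on the chromosome were read beside them, as the 10 nearest measured genes on each side by order in the RefSeq table. Of the 20 neighbours of DAD1 on chromosome 14, 12 were higher in the uninduced C104A/C131A line and 0 lower, with a median log2 difference of 0.25, against -0.02 over 586 other genes of that chromosome. DAD1 at 0.19 lay below that local median. Of the 20 neighbours of DDOST on chromosome 1, 8 were higher and 0 lower, with a median of 0.13, and DDOST at 0.37 lay above it. The part of these neighbourhoods in the differences of DAD1 and DDOST was not tested. On induction in the C104A/C131A line, the 20 neighbours of MAGT1 had a median log2 change of -0.02 (range -0.51 to 0.14), those of OSTC 0.01 (-0.17 to 0.13) and those of STT3A 0.00 (-0.25 to 0.16).

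With both transgenes induced, MAGT1, DDOST, DAD1 and STT3B were higher in the C104A/C131A line, 4 of 9 members, where 10.8% of all genes were higher and 10.9% lower. For all 4, and for 16.4% of all genes, the C104A/C131A arrays lay above the WT arrays without overlap. DDOST was at 10.10, 10.10 and 10.01 against 9.74, 9.68 and 9.66, and DAD1 at 12.63, 12.66 and 12.67 against 12.42, 12.41 and 12.41. MAGT1 was 1.31-fold higher (log2 difference 0.39, limma, adjusted p = 0.000241), DDOST 1.30-fold (adjusted p = 0.000228), DAD1 1.18-fold (adjusted p = 0.00421) and STT3B 1.15-fold (adjusted p = 0.0199). This comparison shares the induced arrays with the responses described before and is not independent of them. For MAGT1 the log2 difference was 0.235 with the mean of its probe sets. The STT3B call was lost with centred arrays, with the 6 induced arrays alone, and without WT induced A, WT induced C or C104A/C131A induced B (adjusted p 0.00188 to 0.0695 over the 21 alternatives). OSTC was at -0.01 (95% interval -0.14 to 0.12) and STT3A at 0.06, and their groups overlapped. Of the 21 markers of other cell types, 2 were again higher, LUM and CD68, and 2 lower, LYZ and SERPINA1. Of the 7 HEK 293 genes 4 were higher, VIM, KRT8, LIN28B and NEFL, while KRT18 did not pass here (limma, adjusted p = 0.0971). Of the 8 ER stress genes other than ERO1A, 6 were higher and 0 lower, with a median log2 difference of 0.55. The part of these markers and stress genes in the differences of the members was not tested.

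**Figure D4:**
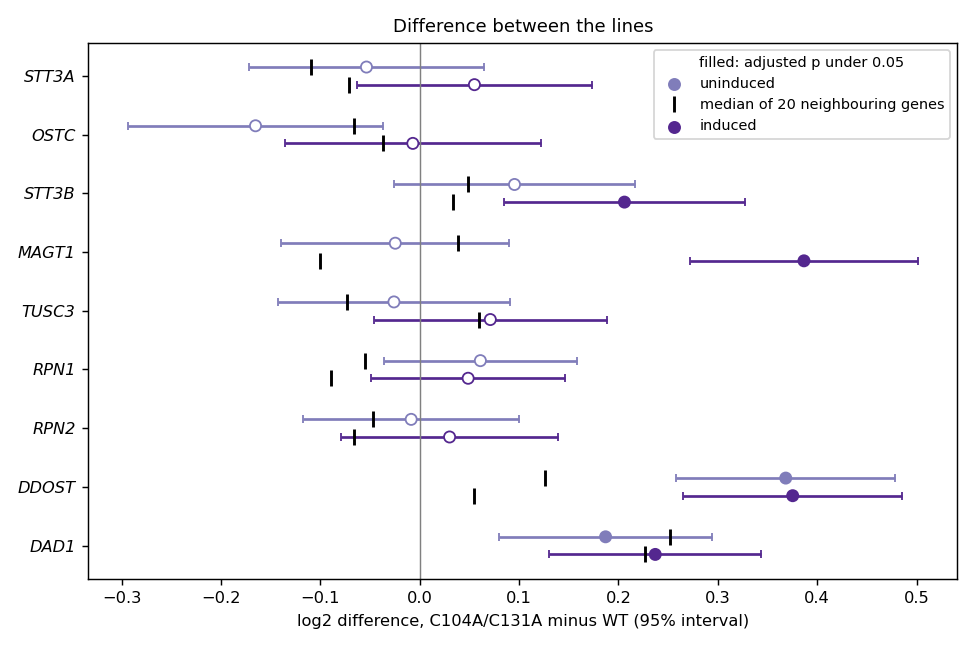
Log2 difference between the lines (horizontal axis, C104A/C131A minus WT, point and 95% interval from limma) for 9 OST subunits, uninduced and induced, with filled points for an adjusted p under 0.05 and black ticks for the median of 20 neighbouring genes. DDOST and DAD1 are higher in both states, MAGT1 moves from -0.02 to 0.39, and the ticks of DAD1 (0.25 and 0.23) lie near its own values.

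Genes whose levels ran most like those of a subunit over the 12 arrays were ranked by Pearson r, as a description, since the arrays fall into groups and share their scaling. MAGT1 was most like HERPUD1 (r = 0.982), a protein of ER-associated degradation, then SEC63, a co-chaperone of the translocon (0.981), and the ER chaperone HSP90B1 (0.971). STT3A was most like the disulfide isomerase P4HB (0.959), the translocon-associated SSR2 (0.958) and CRELD2 (0.954). STT3B was most like UBE2J1, a ubiquitin-conjugating enzyme of the ER (0.992), the oxidase ERO1B (0.983) and the signal peptidase subunit SPCS3 (0.975). TUSC3 had lower values, with ZNF283 (0.899), ZGRF1 (0.894) and POLQ (0.882), whose log2 changes on induction were 0.06, 0.03 and 0.07 in the C104A/C131A line and -0.13, -0.12 and -0.09 in the WT line.

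The genes around the transferase were read in order of the pathway, against shares of all genes that rose of 0.321% in the C104A/C131A line, 0.114% in the WT line and 0.473% in the averaged response. The remaining OST subunits KRTCAP2, a partner of the STT3A complex, and TMEM258 were at log2 changes of 0.08 and 0.11 in the C104A/C131A line and did not pass. MLEC, or malectin, a lectin that binds RPN1, rose by 0.23 in the averaged response (limma, adjusted p = 0.032). Of 15 measured genes that assemble the lipid-linked glycan, 0 passed by limma in the C104A/C131A line (4 at an unadjusted p of 0.05, against 5.88% of all genes) and the median log2 change was 0.05. In the averaged response 1 of the 15 rose, DPAGT1, which starts that assembly (log2 change 0.22, adjusted p = 0.0227). Of 13 genes of dolichol and sugar donor supply, 1 rose in the C104A/C131A line, GFPT1, the entry enzyme of hexosamine synthesis (1.24-fold, adjusted p = 0.0329), and the list's median was 0.08. In the averaged response 3 of the 13 rose, GMPPA by 0.26 on the log2 scale, GFPT1 by 0.21 and NUS1, which works with DHDDS in dolichol synthesis, by 0.17.

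After transfer, of 17 genes of glycan trimming and lectin control, CALR alone passed in the C104A/C131A line (1.33-fold, limma, adjusted p = 0.00134), where 0.321% of all genes rose. The list median was 0.19, and 9 of the 17 passed at an unadjusted p of 0.05, against 5.88% of all genes. Of 11 translocon genes 4 rose there, with a median of 0.25: SSR3 1.46-fold, SEC63 1.32-fold, SSR1 1.32-fold and SSR2 1.18-fold. At the unadjusted threshold 8 of the 11 passed. The averaged response, in which 0.473% of all genes rose, called 2 of the 17 trimming genes, CALR and the lectin chaperone CANX (log2 changes 0.34 and 0.21). It called 7 of the 11 translocon genes, SSR3, SSR1, SEC63, SEC61B, TRAM1, SEC61A1 and SSR2, with log2 changes from 0.49 to 0.22. In WT cells, where 0.114% of all genes rose, 1 gene of each of these last lists passed, CALR (1.21-fold) and SSR1 (1.27-fold). At an unadjusted p of 0.05 in either direction, 4 of the 17 and 9 of the 11 passed there, against 4.46% of all genes. Not all of the 9 rose, since 8 of the 11 translocon genes had a log2 change above 0 and the lowest was -0.16. Of the glycan assembly and donor lists 0 passed by limma (3 of each at an unadjusted p of 0.05). Leaving out ERO1A, whose rise the transgene fixes, 8 of 8 ER stress genes rose in the C104A/C131A line with a median log2 change of 1.00 (HSPA5 2.20-fold), and 7 of 8 in the WT line with a median of 0.63. The WT calls of these lists, CALR and SSR1 among them, are from the main fit, which held no replicate term. With a replicate block in the WT arrays alone, 1 of all genes passed rather than 21, so most of these calls were lost. The count was also 1 with the WT arrays alone and no block. The ranges of the lists met, since XBP1 (0.39) and DDIT3 (0.52) in the C104A/C131A line were below MAGT1 (0.58). Over all genes the medians were -0.01 and 0.00. These lists were not tested as lists.

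**Figure D5:**
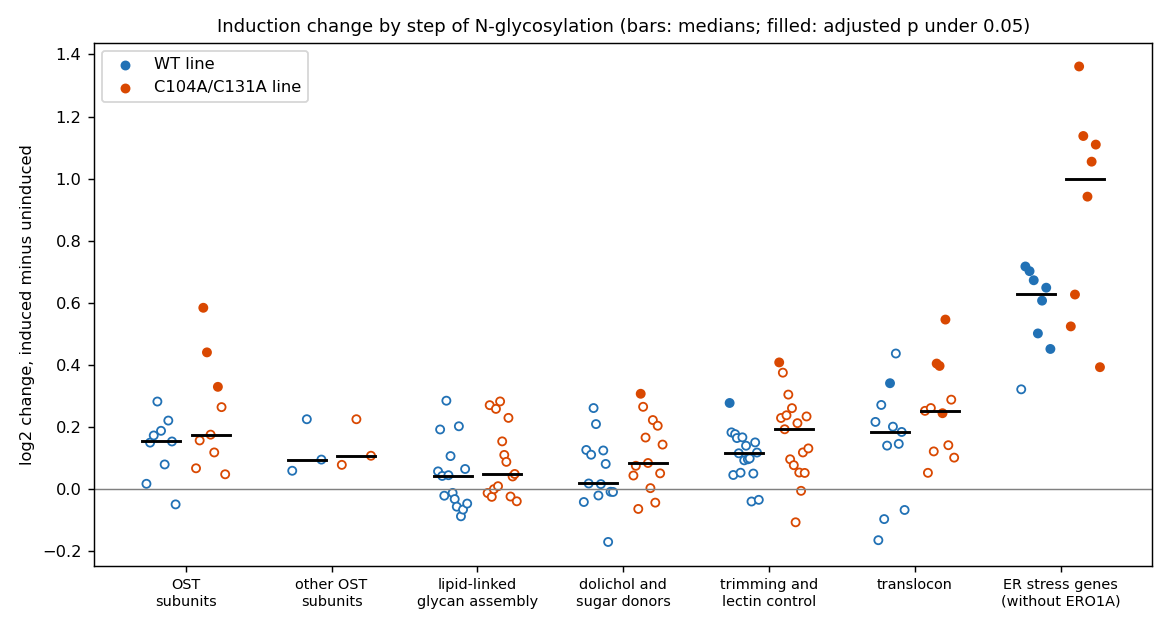
Log2 change on induction (vertical axis, induced minus uninduced) of each measured gene in 7 lists along N-glycosylation, for the WT and C104A/C131A lines, with bars for list medians and filled points for an adjusted p under 0.05. The medians of the OST subunits are 0.15 and 0.18, those of the translocon 0.18 and 0.25 and those of glycan assembly 0.04 and 0.05, against 0.63 and 1.00 for the ER stress genes, which are shown without ERO1A.

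Before induction the lines differed in 21.4% of all genes, 10.8% higher and 10.5% lower, and the pathway lists lay near that share, with 13 of 56 genes called. Of 15 glycan assembly genes, 3 were higher in the uninduced C104A/C131A line and 1 was lower. DPAGT1 was 1.92-fold higher (limma, adjusted p = 3.51e-07), the mannosyltransferase ALG9 1.51-fold and MPDU1, needed for use of the dolichol-linked sugars, 1.35-fold, while the glucosyltransferase ALG5 was at 0.776-fold. Of the supply genes, DHDDS, which makes the dolichol chain, was 1.33-fold higher, UAP1 1.13-fold higher and the transporter SLC35A3 at 0.780-fold. Among trimming genes, CANX was 1.19-fold and LMAN2 1.15-fold higher, and UGGT2 (0.555-fold), MCFD2 (0.817-fold) and MOGS, the first glucosidase (0.830-fold), were lower. SEC61A1, the channel itself, was at 0.862-fold, the only one of 11 translocon genes to pass.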

How the data were processed

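Total RNA of 12 cultures was amplified and labelled for Affymetrix whole-transcript arrays, per the labels' protocols. The values the authors deposited are log2 RMA levels; the submitters' processing notes name RMA, with software and version not given in the sources used here. Their range, 1.06 to 14.1, fits base 2. Of 32321 probe sets, GEO's platform annotation gives 19158 a single symbol, 1388 several and 11775 none; symbols were updated through RefSeq (18376 of 18404 genes matched by Entrez ID). No 2 arrays were identical.

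A group-means model over all 12 arrays was fitted with limma 3.58.1 (lmFit, eBayes; R 4.3.3, statmod 1.5.0), following the two-way layout of the series design. Two-sided p-values were adjusted by Benjamini-Hochberg over all 18404 genes, with a threshold of 0.05; 6 comparisons were made. The steps were checked on simulated data. The members and lists were chosen with earlier results of these data known. All members are named whatever their values, and of each other list up to 4 genes past the threshold with the largest change. Of listed genes, those without a single-symbol probe set were left out. Alternatives are given in the closing section. Two-sided intervals are 95%. Figures were drawn with matplotlib 3.10.9.

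Same-letter arrays of the WT line deviated together from their group means (r = 0.391, 0.139 and 0.246). A pairing by letter there is read from the data and not from a label. The main fit held no replicate term, so its calls leave this pairing out. The letter entered only in alternative fits, as a block over both lines or in the WT arrays alone. In the C104A/C131A line r was 0.117, -0.143 and -0.0192, which gives no such pairing, although the block over both lines covers that line too. Between the induced groups of the lines r was 0.32, 0.144 and -0.126, and between the uninduced groups -0.123, -0.147 and 0.0893.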

Additional observations from a re-analysis of the deposited data

How the results depend on the processing

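Across 1125 values of members under alternative fits, 1038 kept their direction and side of the threshold, 48 lost a call, 18 gained one and 21 changed sign, none of the last being a called value. A trend and robust prior called 5 members rather than 3 in the C104A/C131A line, 3 rather than 0 in the WT line and 1 rather than 0 for the difference. It called 105 genes rather than 60, 43 rather than 21 and 9 rather than 0 in the same comparisons. Without dim genes the counts of all genes were 91 in the C104A/C131A line and 7 for the difference. Array weights gave 153 genes and 3 members in the WT line, 4 genes for the difference and 6643 against 3934 for the uninduced lines. Fitted on their own arrays, the C104A/C131A line gave 20 genes and 1 member, the WT line 1 gene, and the uninduced lines 1 member. The two-way analysis of variance gave 1 member in the WT line. Centring the arrays gave 13 genes in the WT line and 3 members for the averaged response. For the latter the count was also 3 with the replicate block and without the 2 extreme arrays on the first principal component, an alternative chosen after seeing the data that gave 13 genes in the WT line. A replicate block in the WT arrays alone, also added after seeing the data, gave 1 gene there. The replicate block changed no other member's call. Leaving out 1 array gave 36 to 64 genes in the C104A/C131A line (38 without C104A/C131A uninduced A, 36 without uninduced B and 37 without induced B). It gave 9 to 18 in the WT line (9 without WT uninduced B, 12 without induced B and 11 without induced C). Members called were then 2 to 3 in the C104A/C131A line, 3 to 4 for the averaged response, and 1 to 2 for the uninduced and 3 to 4 for the induced lines. Values that changed sign when 1 array was left out ranged, on the log2 scale, from -0.00733 to 0.0462 for DAD1 in the WT line. For the difference of responses they ranged from -0.0282 to 0.00117 for RPN1 and -0.0132 to 0.0363 for DDOST, and for averaged TUSC3 from -0.0125 to 0.0165. Between uninduced lines they ran from -0.0282 to 0.0045 for RPN2 and -0.0493 to 0.00717 for TUSC3, and between induced lines from -0.0362 to 0.0222 for OSTC. With the mean of its probe sets MAGT1 was at 0.0688 between uninduced lines. Where the alternative itself does not show it, the cause was not tested. No alternative moved the median of all genes by more than 0.0182. No detection values came with the levels, so signal over background was not assessed.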
